A study of Mus musculus with 5 samples.

Results

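Cytotoxic lymphocyte genes encode the killing machinery of natural killer cells and cytotoxic T cells, and 9 of them were followed here: Nkg7, Ccl5, Gzma, Gzmb, Prf1, Klrd1, Txk, Cd244a and Il2rb. The members were fixed by name, and every probe set annotated to exactly 1 of these symbols was taken. This gave 12 probe sets for the 9 genes, out of 45101 probe sets on the array, with 1 probe set for 6 genes and 2 probe sets each for Prf1, Cd244a and Il2rb. Total RNA of whole blood was measured in 3 samples of female first-generation mice of a DBA/2J by FVB/NJ mating (DBAxFVB F1) and in 2 samples of female first-generation mice of an AKR/J by FVB/NJ mating (AKRxFVB F1), 1 Affymetrix array per sample. All animals were adult, untreated, and shared the FVB/NJ parent. The question behind the comparison was which genes are expressed at a different basal level in blood of the 2 genotypes. The sources used here give no ages in weeks and do not state that each array is its own animal, so the p-values below rest on a spread between arrays that may be technical.

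Killer lymphocytes store perforin and granzymes in secretory granules. On contact with a target cell the granules are released, perforin opens the target's membrane, and the granzymes, which are serine proteases, cut proteins inside it and start cell death. Release is set by a balance of activating and inhibitory surface receptors, and the cells depend on interleukin signals for survival and growth. In blood these transcripts come from a minority of leukocytes, so a whole blood sample dilutes them with RNA of red cell precursors, platelets and myeloid cells. A lower value in such a mixture does not separate fewer cytotoxic cells from less of the transcript in each cell.

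Klrd1 has a known strain difference. It encodes CD94, the chain that pairs with NKG2 proteins to form receptors for the class Ib molecule Qa-1, and DBA/2J mice are known to lack CD94. The DBAxFVB F1 animals therefore inherited from FVB/NJ the allele that can be expressed, whereas the AKRxFVB F1 animals carried an AKR/J and an FVB/NJ allele.

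The upstream sequences of Nkg7, Gzma and Gzmb are shown because these 3 genes were among those with their highest value on AKRxFVB F1 array 2, and because RefSeq tables of build GRCm38.p6 held a promoter window for them. Each run gives the 250 bases before the annotated start of the gene, 5′ to 3′ on the gene's strand, from chr7:43436888-43437137 on the plus strand, chr13:113100982-113101231 on the minus strand and chr14:56262335-56262584 on the minus strand, and all 3 lie outside the gene bodies. Capitals mark matches, on either strand, to the T-box letters TCACAC, the RUNX letters TGTGGT, the ETS letters AGGAAG, the AP-1 letters TGANTCA or the CREB/ATF letters TGACGT.
Nkg7: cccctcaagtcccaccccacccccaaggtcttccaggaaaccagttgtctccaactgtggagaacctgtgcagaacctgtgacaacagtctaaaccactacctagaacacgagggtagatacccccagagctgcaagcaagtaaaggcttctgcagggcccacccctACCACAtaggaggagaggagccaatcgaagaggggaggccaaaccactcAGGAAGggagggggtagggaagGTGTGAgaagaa
Gzma: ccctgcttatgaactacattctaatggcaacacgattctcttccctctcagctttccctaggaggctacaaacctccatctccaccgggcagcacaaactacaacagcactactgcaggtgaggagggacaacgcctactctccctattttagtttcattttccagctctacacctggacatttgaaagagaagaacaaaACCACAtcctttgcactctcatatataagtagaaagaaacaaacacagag
Gzmb: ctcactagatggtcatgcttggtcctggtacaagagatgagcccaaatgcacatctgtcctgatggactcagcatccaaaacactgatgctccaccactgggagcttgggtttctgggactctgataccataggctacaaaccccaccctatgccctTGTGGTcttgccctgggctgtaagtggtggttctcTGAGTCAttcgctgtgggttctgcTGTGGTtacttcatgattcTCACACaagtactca
The RUNX letters occurred in all 3 of these windows, 45 to 50 bases before the start in Gzma, 78 to 83 bases before it in Nkg7, and at 2 places in Gzmb. They were found in 5 of 7 windows of the 6 members with an entry, against 14% of 32851 mouse windows of the same length. The T-box letters were in 3 of the 7 windows (Nkg7, Gzmb and 1 of the 2 Txk windows), against 12.3% of all windows. The ETS letters were in 3 of 7 (29.5% of all windows), and the AP-1 letters (6.75%) and the CREB/ATF letters (6.47%) in 2 of 7 each. TATAAA matched 0 of the 7 windows, against 12.4% of all. A match of letters is a description and not a bound site. The genes without an entry were Ccl5, Klrd1 and Il2rb.

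The values were taken as log2 expression, and the array medians of non-control probe sets lay between 2.49 and 2.54. DBAxFVB F1 array 3 stood apart: its 18 hybridisation control probe sets had a median of 7.99, against 10.01 to 10.12 on the other 4 arrays, and the excess of 3-prime over 5-prime signal, which grows as RNA degrades, was 1.32 for Actb and 1.33 for Gapdh on it, against 0.68 to 1.22 and 0.58 to 1.04 elsewhere. The differences with this array left out are therefore given as well. Erythroid and platelet marker lists had bright averages, 6.47 to 7.67 and 6.81 to 8.42 per array, but their single genes ranged widely. Among erythroid markers Alas2 read 13.45 to 13.59, while Hba-a1 read 2.34 to 2.68, near the array medians. Among platelet markers Ppbp read 9.56 to 11.39 and Gp6 2.94 to 4.13. Monocyte markers averaged 6.12 to 6.86, neutrophil markers 4.63 to 5.19, B cell markers 4.14 to 5.96 and T cell markers 3.54 to 4.12.

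The cytotoxic genes were dim in this blood. The means of their 12 probe sets over the 5 arrays ran from 2.27 to 3.36, from the 34th to the 79.6th percentile of all non-control probe sets, and single readings ran from 1.87 to 4.03. Of the natural killer markers set for comparison, 4 of 5 measured genes lay below the expression filter of 2.51 used for testing. Ncr1, the activating receptor that defines the lineage, read 2.63, 2.57 and 2.14 in DBAxFVB F1 and 2.28 and 2.46 in AKRxFVB F1. The natural killer list averaged 2.46, 2.35 and 2.19 on the DBAxFVB F1 arrays and 2.19 and 2.36 on the AKRxFVB F1 arrays, so the groups overlapped. All 9 measured T cell markers passed the filter, with means from 2.86 (Cd3g) to 5.03 (Cd3e), both chains of the T cell receptor complex.

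Gzma, a trypsin-like granzyme, read 3.31, 2.998 and 2.97 in DBAxFVB F1 and 2.96 and 4.03 in AKRxFVB F1. AKRxFVB F1 array 2 was the highest by 0.71, while array 1 of that cross was the lowest of the 5 by a narrow margin, so the groups overlapped. The means were 3.09 ± 0.19 (SD, n = 3) in DBAxFVB F1 and 3.49 ± 0.75 (SD, n = 2) in AKRxFVB F1, a difference of -0.40 ± 0.30 (SE, limma adjusted p = 0.678).

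Gzmb, the granzyme that cuts after aspartate and activates caspases, read 2.88, 2.64 and 2.97 in DBAxFVB F1 and 2.15 and 3.38 in AKRxFVB F1. Both AKRxFVB F1 arrays lay outside the DBAxFVB F1 range, on opposite sides of it, and their SD of 0.87 (n = 2) was the widest of any member. The means of 2.83 in DBAxFVB F1 and 2.77 in AKRxFVB F1 differed by 0.064 ± 0.32 (SE, limma adjusted p = 0.958), with a 95% interval from -0.69 to 0.82. That interval holds a change in either direction, so nothing is shown about whether Gzmb was alike in the 2 crosses.

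Prf1 encodes perforin, the pore-forming protein of the granule, and its probe sets varied little. Probe set 1451862_a_at read 2.78, 2.76 and 2.87 in DBAxFVB F1 and 2.74 and 2.69 in AKRxFVB F1. Every DBAxFVB F1 array was above both AKRxFVB F1 arrays, but by a gap of 0.016 at the closest, and the difference of 0.086 ± 0.14 (SE) had a limma adjusted p of 0.844. Probe set 1450335_at lay below the filter, at 2.24, 2.30 and 2.18 in DBAxFVB F1 and 2.37 and 2.26 in AKRxFVB F1, a difference of -0.075, opposite in sign. Neither probe set shared the high reading of Gzma and Gzmb on AKRxFVB F1 array 2.

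Nkg7, a membrane protein of cytotoxic granules that takes part in their release, read 2.77, 2.86 and 2.60 in DBAxFVB F1 and 2.77 and 3.72 in AKRxFVB F1. AKRxFVB F1 array 2 exceeded the next array by 0.86, the widest such gap among the members, and AKRxFVB F1 array 1 lay inside the DBAxFVB F1 range. The means were 2.74 ± 0.13 (SD, n = 3) in DBAxFVB F1 and 3.24 ± 0.67 (SD, n = 2) in AKRxFVB F1, a difference of -0.50 ± 0.27 (SE, limma adjusted p = 0.555). Without AKRxFVB F1 array 2 the difference was -0.030.

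Ccl5, a chemokine stored by memory T cells and natural killer cells that draws leukocytes to inflamed tissue, read 3.26, 3.12 and 3.05 in DBAxFVB F1 and 3.25 and 3.67 in AKRxFVB F1. The pattern was that of Nkg7 on a smaller scale, with AKRxFVB F1 array 1 inside the DBAxFVB F1 range. Its difference was -0.31 ± 0.18 (SE, limma adjusted p = 0.596), or -0.11 without AKRxFVB F1 array 2. Platelets are also known to carry the Ccl5 protein, and the platelet marker list averaged 7.98, 8.10 and 6.81 on the DBAxFVB F1 arrays and 7.46 and 8.42 on the AKRxFVB F1 arrays, highest on the array where Ccl5 was highest. Its part in the Ccl5 reading was not tested.

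**Figure D1:**
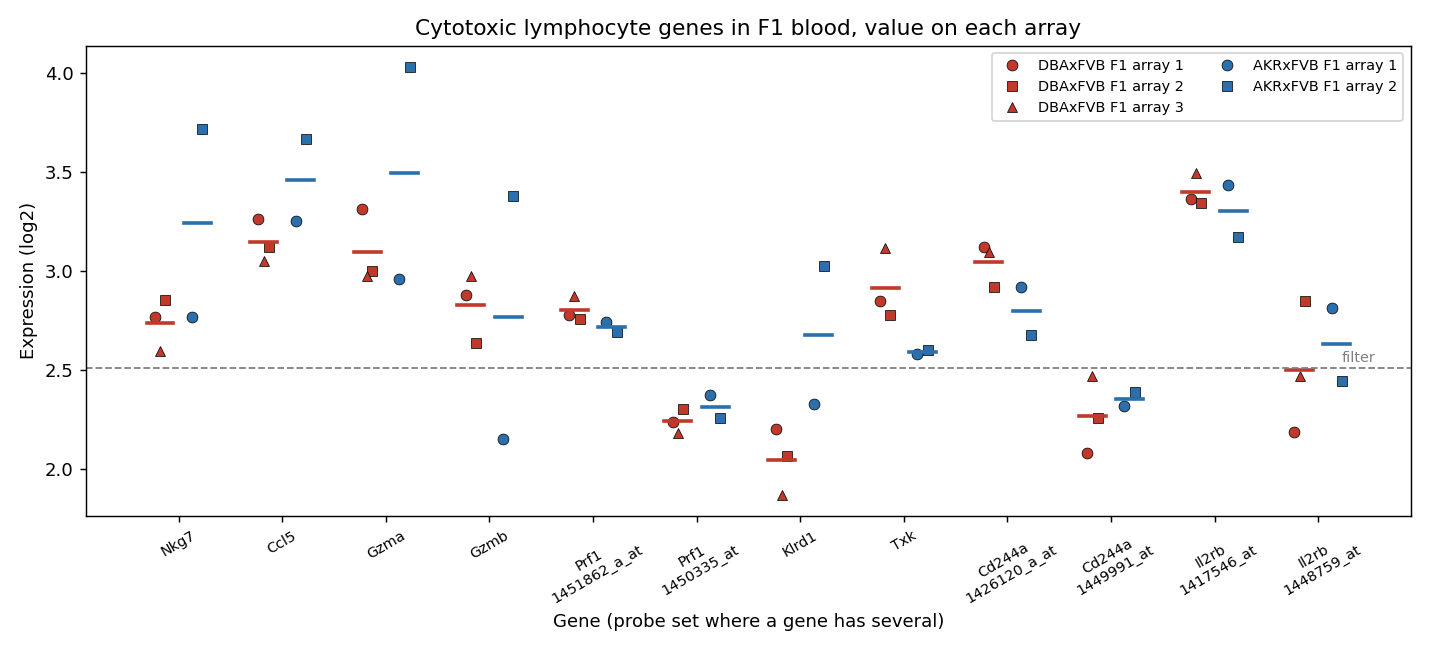
Log2 expression of the 12 probe sets on each array, with DBAxFVB F1 in red to the left of AKRxFVB F1 in blue, 1 symbol per array, and short bars for the means of 3 and 2 arrays. AKRxFVB F1 array 2 (blue squares) is the highest point for Nkg7, Ccl5, Gzma, Gzmb and Klrd1, and the dashed line is the filter at 2.51.

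Among the receptors, Klrd1 was the member whose crosses separated downward. It read 2.20, 2.07 and 1.87 in DBAxFVB F1 and 2.33 and 3.02 in AKRxFVB F1, so all 3 DBAxFVB F1 arrays lay below both AKRxFVB F1 arrays. No other member probe set did so, while 11.1% of all non-control probe sets did. The means were 2.05 ± 0.17 (SD, n = 3) in DBAxFVB F1 and 2.68 ± 0.49 (SD, n = 2) in AKRxFVB F1. The mean over all arrays, 2.30, was below the filter, and Klrd1 was therefore not among the probe sets tested. In the fit without a filter the difference was -0.63 ± 0.20 (SE), with a 95% interval from -1.09 to -0.17, a limma unadjusted p of 0.0121 and an adjusted p of 0.441, and the threshold was not met. At an unadjusted p below 0.05, 8.62% of probe sets were called in that fit.

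The size of the Klrd1 difference rested on AKRxFVB F1 array 2: it was -0.28 without that array and -0.98 without array 1 of the same cross. These values are plain differences of means, since Klrd1 lay below the filter in the fits that left out 1 array. Leaving out 1 array could not turn the sign, because the groups did not overlap. The difference was -0.54 without DBAxFVB F1 array 3, which held the lowest Klrd1 value. Klrc1, which encodes the NKG2A partner of CD94, read 2.03, 1.96 and 1.88 in DBAxFVB F1 and 1.86 and 2.15 in AKRxFVB F1, below the filter and with overlapping groups. A probe set this dim may hold little signal of its own gene, and the link between the DBA/2J allele and the reading was not tested.

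Cd244a encodes 2B4, a receptor of the SLAM family that binds CD48 and can activate or inhibit natural killer cells. Its tested probe set, 1426120_a_at, read 3.12, 2.92 and 3.10 in DBAxFVB F1 and 2.92 and 2.68 in AKRxFVB F1. DBAxFVB F1 array 2 and AKRxFVB F1 array 1 both stood at 2.92, and the difference of 0.25 ± 0.16 (SE) had a limma adjusted p of 0.621. The other probe set, 1449991_at, read 2.08, 2.26 and 2.47 in DBAxFVB F1 and 2.32 and 2.39 in AKRxFVB F1, below the filter, with a difference of -0.085. The 2 probe sets thus gave opposite signs, and neither difference passed a test.

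Il2rb encodes the chain that receptors for interleukin 2 and interleukin 15 share and on which natural killer cells depend. Probe set 1417546_at read 3.36, 3.34 and 3.49 in DBAxFVB F1 and 3.43 and 3.17 in AKRxFVB F1, and overlapping groups. Its difference was 0.096 ± 0.17 (SE, limma adjusted p = 0.86). Probe set 1448759_at read 2.19, 2.85 and 2.47 in DBAxFVB F1 and 2.815 and 2.45 in AKRxFVB F1, a difference of -0.13 ± 0.22 (SE, limma adjusted p = 0.856). Here too the 2 probe sets of a gene had opposite signs, inside the spread of the arrays.

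Txk, a Tec family kinase of T cells and natural killer cells that acts below the antigen receptor, read higher in DBAxFVB F1 on every array. It read 2.85, 2.78 and 3.12 in DBAxFVB F1 and 2.58 and 2.60 in AKRxFVB F1. All 3 DBAxFVB F1 arrays were higher than both AKRxFVB F1 arrays, as they were for Prf1 probe set 1451862_a_at, and 14.6% of all non-control probe sets separated in this direction. The means were 2.92 ± 0.18 (SD, n = 3) in DBAxFVB F1 and 2.59 ± 0.012 (SD, n = 2) in AKRxFVB F1, a difference of 0.32 ± 0.16 (SE). Txk had the smallest p of the 9 tested probe sets, a limma unadjusted p of 0.0742 and an adjusted p of 0.529, which missed the threshold. The difference was 0.22 without DBAxFVB F1 array 3, which held its highest value.

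**Figure D2:**
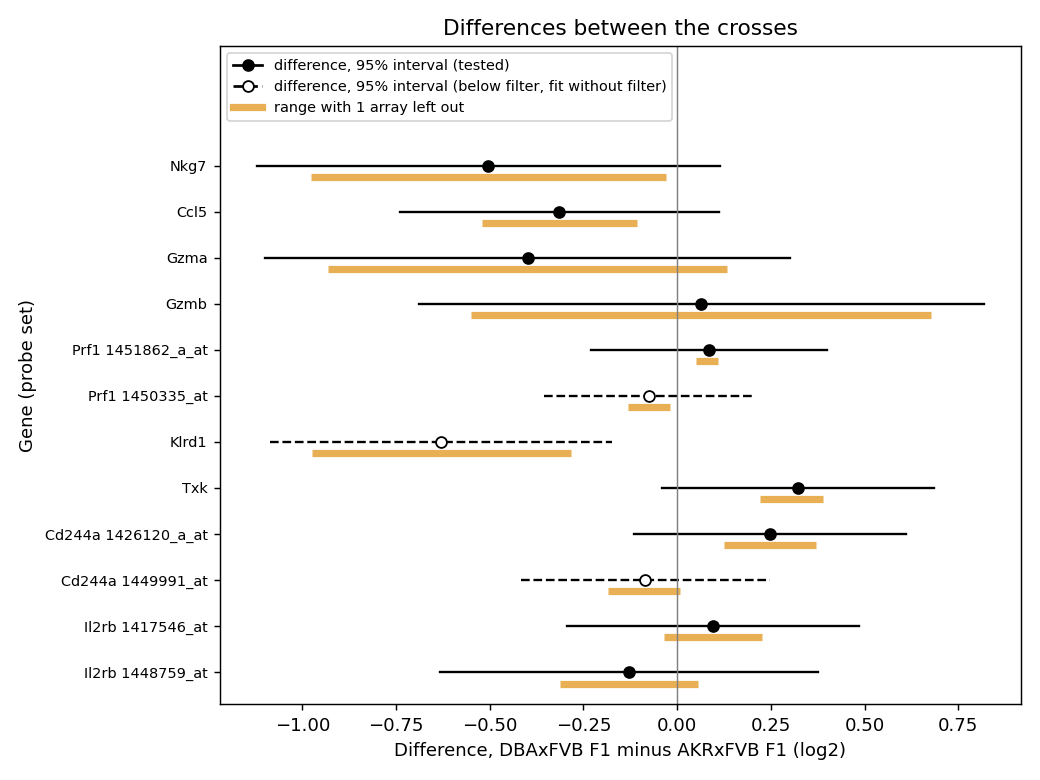
Log2 differences between the crosses, DBAxFVB F1 minus AKRxFVB F1, with 95% limma intervals for the 9 tested probe sets (filled points) and, from the fit without a filter, for the 3 below the filter (open points, dashed). Orange bars span the values with 1 array left out: those of Gzma, Gzmb, Il2rb (both probe sets) and 1 Cd244a probe set cross 0.

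Across the set, 9 of 12 probe sets passed the filter, standing for 8 of the 9 genes (all but Klrd1), and limma called 0 of them at an adjusted p below 0.05, where 0% of the 22519 probe sets tested were called. At an unadjusted p below 0.05 it called 0 of the 9, against 10.4% of all tested. Of the 9, 5 were higher and 4 lower in DBAxFVB F1, and 43.2% of all probe sets tested were lower. The median difference was 0.064 for these 9 and 0.044 for all probe sets tested. Without DBAxFVB F1 array 3 the differences of the tested probe sets were -0.43 for Nkg7, -0.27 for Ccl5, -0.34 for Gzma, -0.0078 for Gzmb, 0.051 for Prf1, 0.22 for Txk, 0.22 for Cd244a, and 0.049 and -0.11 for Il2rb, and Gzmb alone turned its sign. The 95% intervals reached between 0.31 and 0.75 to either side of the estimate, so smaller differences could not be told from 0 even without adjustment. The adjusted threshold asked for more: Ms4a1, a B cell gene, missed it with a difference of -1.96 ± 0.45 (SE, limma adjusted p = 0.21). The median SE of the tested members was smaller, at 0.18, so this gene does not give the size that a member would need. An exact permutation test of 3 arrays against 2 cannot give a p under 0.1 and was not used.

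Readings of several members stood out on 1 array. For 5 of the 12 probe sets (Nkg7, Ccl5, Gzma, Gzmb and Klrd1) the highest of the 5 readings was on AKRxFVB F1 array 2, against 17.3% of all non-control probe sets. The same was so for 5 of 9 tested T cell markers (55.6%), 3 of 5 CD8 T cell markers and 3 of 5 platelet markers (60% each). Over all named genes tested the share was 17.2%. It was 2 of 5 for erythroid markers, 1 of 3 for leukocyte markers and 1 of 5 for monocyte markers. For B cell markers it was 0 of 5, for neutrophil markers 0 of 4 and for natural killer markers 0 of 1 tested. The pattern was thus shared with some lists of blood cell genes and not with others. The CD8 list holds 3 Cd3 genes that are also in the T cell list. On AKRxFVB F1 array 2 the 5 member probe sets lay 0.78 (Nkg7), 0.395 (Ccl5), 0.77 (Gzma), 0.57 (Gzmb) and 0.72 (Klrd1) above their own mean. The gap to the next highest array ran from 0.40 to 0.86 for these 5, and was at most 0.27 for the other 7 probe sets. Both Prf1, both Cd244a and both Il2rb probe sets and Txk deviated by -0.27 to 0.085 on AKRxFVB F1 array 2. These 5 genes were grouped after their values were seen, and no test was made of the grouping.

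**Figure D3:**
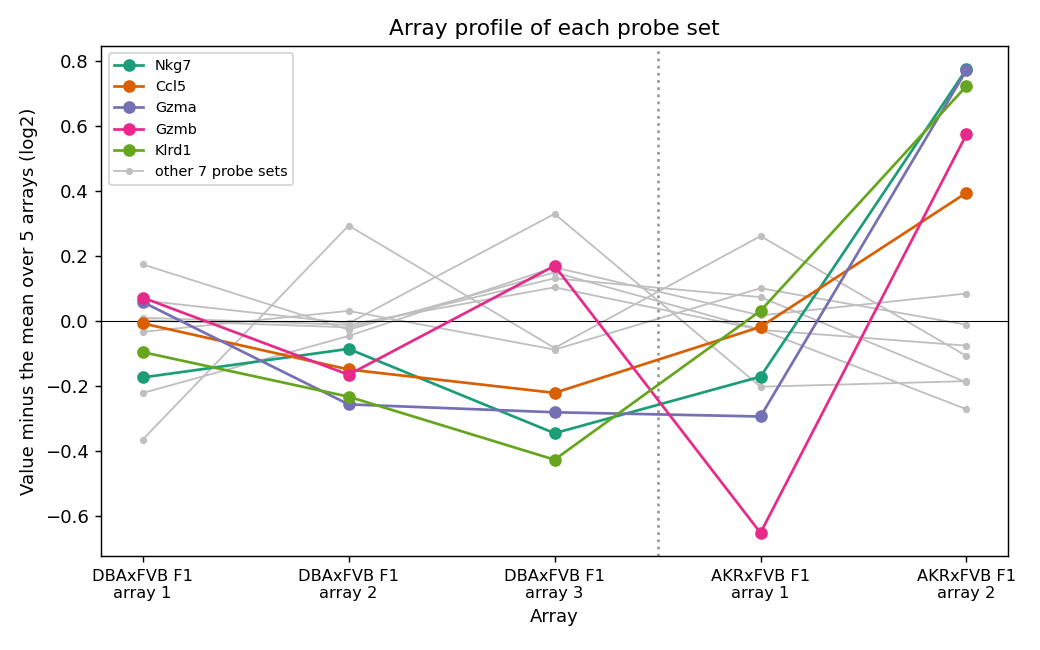
Value of each probe set on each array minus its own mean over the 5 arrays (log2), with lines joining the values of 1 probe set. The 5 coloured probe sets peak on AKRxFVB F1 array 2, between 0.395 and 0.78 above their mean, while the 7 grey ones stay between -0.27 and 0.085 there.

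For some members the difference between the AKRxFVB F1 arrays also set what the comparison of crosses gave. It mattered little for Txk, at 0.31 without AKRxFVB F1 array 1 and 0.33 without array 2. Without AKRxFVB F1 array 1, which leaves a lone array that is assumed to vary like those of the other cross, 4 members had an unadjusted p below 0.05 (Nkg7, Ccl5, Gzma and Gzmb, all lower in DBAxFVB F1), where 5.52% of probe sets tested were called, and their limma adjusted p ranged from 0.764 to 0.893. Without array 2, Gzmb alone was called at that level and in the other direction, at 0.68 (limma adjusted p = 0.407), where 9.08% of probe sets were called. Gzma changed sign as well, to 0.13 without array 2 and -0.93 without array 1. Averages of the 9 measured T cell markers were 3.93, 3.56 and 3.54 in DBAxFVB F1 and 4.06 and 4.12 in AKRxFVB F1. The 2 AKRxFVB F1 averages were thus close, but single genes differed between these arrays in both directions. On AKRxFVB F1 arrays 1 and 2, Cd2 read 5.29 and 4.40, Cd6 3.14 and 2.79, Cd5 2.79 and 3.37, and Cd28 3.14 and 3.68. Of the CD8 genes, Cd8a read 6.39, 6.38 and 6.66 in DBAxFVB F1 and 6.09 and 6.46 in AKRxFVB F1, and Cd8b1 read 2.59, 2.57 and 2.69 in DBAxFVB F1 and 2.75 and 2.65 in AKRxFVB F1, both with overlap. The CD8 T cell list, which also holds 3 Cd3 genes, averaged 4.45, 4.06 and 4.05 in DBAxFVB F1 and 4.50 and 4.66 in AKRxFVB F1. These averages were lower in DBAxFVB F1 without overlap, narrowly so at the closest (4.45 against 4.50). Genes common to leukocytes (Ptprc, Cd53 and Laptm5) averaged 6.86, 6.41 and 6.13 in DBAxFVB F1 and 7.65 and 7.77 in AKRxFVB F1, and monocyte markers 6.12, 6.16 and 6.41 in DBAxFVB F1 and 6.86 and 6.76 in AKRxFVB F1. The averages of these 3 lists (T cell, leukocyte and monocyte) did not overlap between the crosses and were lower in DBAxFVB F1. Many of their single genes did overlap: Cd3g, Cd247, Cd4, Cd5, Cd28, Cd6, Laptm5, Csf1r, Ccr2, Lyz2 and F13a1. Of these, Cd247, Cd6 and Ccr2 had the higher mean in DBAxFVB F1. The genes that separated were Cd3d, Cd3e, Cd2, Ptprc, Cd53 and Ctss, all lower in DBAxFVB F1. Over all non-control probe sets 11.1% separated in that direction. Cardiac muscle genes were read because the blood was drawn from the heart. They averaged 3.15, 2.52 and 2.73 in DBAxFVB F1 and 2.29 and 2.502 in AKRxFVB F1. These averages were higher in DBAxFVB F1 without overlap, but narrowly so (2.52 against 2.502). Of the 6 genes, 3 lay below the filter. Of the 3 tested, Actc1 (0.75) and Myl2 (0.78) were higher in DBAxFVB F1 and Tnnt2 (-0.15) was lower. Myl2 read 3.93, 2.83 and 2.74 in DBAxFVB F1 and 2.41 and 2.36 in AKRxFVB F1. The part of leukocyte or heart muscle content in the members' readings was not tested.

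Other genes of the cytotoxic pathway were read from lists. Of 106 entries in 8 lists, 90 had a probe set and 55 passed the filter. Limma called 0 of the 55 at an adjusted p below 0.05, as it called 0% of the 12421 named genes tested, and 6 at an unadjusted p below 0.05 (10.9%, against 10% of all named genes). All 6 were lower in DBAxFVB F1. Of the 55, 34 were lower, or 61.8%, against 41.7% of all named genes, and the median difference was -0.18 against 0.054. B cell markers were lower too, for 4 of 5 tested genes with a median of -1.05, and 2 of the 5 had an unadjusted p below 0.05. Among them Ms4a1, which encodes CD20, read 5.29, 5.16 and 6.19 in DBAxFVB F1 and 8.03 and 6.97 in AKRxFVB F1, a difference of -1.96 ± 0.45 (SE, limma adjusted p = 0.21). The part of B cell content in the values of the pathway lists was not tested.

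The SLAM family and its adaptors lay lower in DBAxFVB F1 for all 7 tested members, with a median of -0.40. Cd48, the ligand of the Cd244a product, read 3.10, 2.90 and 3.13 in DBAxFVB F1 and 4.56 and 4.003 in AKRxFVB F1, without overlap, a difference of -1.24 ± 0.21 (SE, limma adjusted p = 0.144). The others named by rule were Hcst and Tyrobp, the adaptors DAP10 and DAP12 of activating receptors, at -0.40 ± 0.30 and -0.43 ± 0.44, and Ly9 at -0.27 ± 0.27. CD48 is made by most leukocytes, and the part of leukocyte content in its reading was not tested.

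Among granule release genes 6 of 11 lay lower, and the list median was -0.24. Coro1a, an actin regulator needed for granule exit in human natural killer cells, read 4.93, 4.58 and 5.07 in DBAxFVB F1 and 6.61 and 6.10 in AKRxFVB F1, a difference of -1.50 ± 0.29 (SE, limma adjusted p = 0.16). Was, the Wiskott-Aldrich protein that nucleates actin, differed by -0.40 ± 0.16, Dock2 by -0.67 ± 0.33 and Ap3b1, an adaptor of lysosome-related organelles, by -0.50 ± 0.30. Among granule contents, 4 of 7 were lower (median -0.62), with M6pr, a sorting receptor for lysosomal enzymes, at -0.62 ± 0.19, Ctsc, the protease that activates granzymes, at -1.14 ± 0.54, Lamp1 at -0.66 ± 0.42 and Gzmm, a further granzyme, at 0.45 ± 0.29. Ctsc read 3.70, 3.13 and 4.12 in DBAxFVB F1 and 5.77 and 3.81 in AKRxFVB F1, highest on AKRxFVB F1 array 1. Gzmm read 4.10, 3.52 and 4.25 in DBAxFVB F1 and 3.19 and 3.82 in AKRxFVB F1, highest on DBAxFVB F1 array 3, so neither had the high reading of Gzma and Gzmb on AKRxFVB F1 array 2.

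Killer receptors were mostly below the filter, with 5 of 19 measured genes tested, 3 of them lower, and a median of -0.018. Klrg1, an inhibitory receptor of mature killer cells, differed by 0.24 ± 0.17 (SE), Cd160 by 0.13 ± 0.22, Klre1 by -0.076 ± 0.19 and Cd96 by -0.049 ± 0.18, and their limma adjusted p ran from 0.656 to 0.941. The kinases and proximal signalling genes around Txk had 6 of 9 lower (median -0.31): the related kinase Btk, active in B and myeloid cells, differed by -0.66 ± 0.27, Syk by -0.80 ± 0.39, Tec by -0.39 ± 0.23 and the adaptor Lcp2 by -0.37 ± 0.32. Lcp2 read 3.43, 3.53 and 3.55 in DBAxFVB F1 and 3.28 and 4.48 in AKRxFVB F1, highest on AKRxFVB F1 array 2. That array held the highest reading of 15 of the 55 pathway genes (27.3%, against 17.2% of all named genes tested).

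In the interleukin 2 and 15 system, 4 of 8 were lower (median -0.085). Jak1, a kinase that signals below the Il2rb chain, read 6.34, 5.90 and 5.35 in DBAxFVB F1 and 6.51 and 7.04 in AKRxFVB F1, a difference of -0.91 ± 0.37 (SE, limma adjusted p = 0.455). Il15ra, which presents interleukin 15, differed by 0.55 ± 0.26, and the transcription factors Stat5b and Stat5a by -0.41 ± 0.22 and -0.26 ± 0.15. The chemokines, death ligands and interferon gamma had 4 of 8 measured genes tested, 2 lower, with Ccl4 at 0.22 ± 0.15, the receptor gene Ccr1 at -0.21 ± 0.16, Xcl1 at 0.057 ± 0.16 and Ccl3 at -0.025 ± 0.19. Of the transcription factors 4 of 7 were tested, 2 of them lower: Runx3, which drives the cytotoxic T cell programme, read 3.77, 4.20 and 3.81 in DBAxFVB F1 and 3.35 and 3.62 in AKRxFVB F1, a difference of 0.44 ± 0.21 (limma adjusted p = 0.527), and Tox, Id2 and Prdm1 differed by 0.31 ± 0.18, -0.32 ± 0.20 and -0.18 ± 0.19. Tbx21 and Eomes, the T-box factors of killer cells, had means below the filter.

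**Figure D4:**
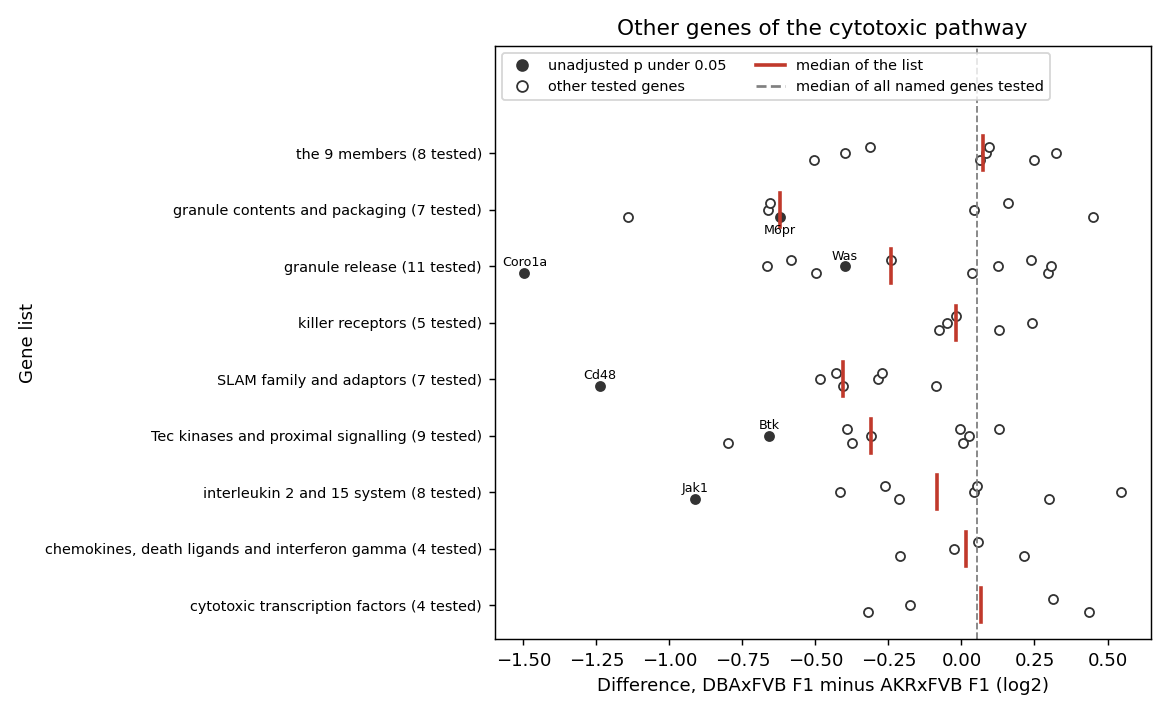
Difference of each tested gene, DBAxFVB F1 minus AKRxFVB F1 (log2), by list, with filled points for an unadjusted p below 0.05, a red bar at each list's median and a dashed line at 0.054, the median of all named genes tested. The 6 filled and labelled genes all lie below 0, and none of the 9 members is filled.

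The genes whose profile over the 5 arrays came closest to the 4 members with a range of at least 1 were mostly not cytotoxic genes. Likeness was the root mean square difference, in log2 units, between values centred on each gene's mean, over 12420 or 12421 named genes. For Nkg7 the closest were Cops2 (0.076), Kif22 (0.091) and Tfam (0.095), for Gzma they were Rit1 (0.059), Dusp11 (0.065) and Tfam (0.083), for Gzmb Kcnip3 (0.089), Dctn1 (0.097) and Nomo1 (0.10), and for Klrd1 Orai3 (0.035), Supt16 (0.079) and Cyb5r4 (0.079). Gzma ranked 16th for Nkg7 (0.14), and Nkg7 ranked 13th for Gzma and 20th for Klrd1 (0.12). Gzmb was less like the others, at rank 393 for Gzma (0.28) and 1588 for Nkg7 (0.35). With 5 arrays many genes resemble any profile, and the values are given as a description.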

How the data were processed

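Whole blood RNA of 5 samples was analysed, 3 of DBAxFVB F1 and 2 of AKRxFVB F1, grouped by the cross in their labels. Per the labels' protocols, blood was drawn by cardiac puncture and the RNA was amplified and biotin-labelled with the array maker's kit. The values as deposited by the authors, already normalized and 1 for each probe set on each array, were taken as log2 because they ran from 1.29 to 14.8. MAS5 and RMA are named, per the submitters' processing notes, and which gave these values is not given in the sources used here. No detection calls were used, so a limit of detection is unknown, and dim signals may be distorted in a way that depends on the method.

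The platform annotation gave 1 symbol to 34958 of 45101 probe sets, several to 932 and none to 9211, and updating symbols by gene identifier changed 0. After removal of 64 controls, 22519 probe sets with a mean at or above the median (2.51) entered a limma fit (version 3.58.1, R 4.3.3, cross as the only term, variance trend, 3 residual degrees of freedom, two-sided, Benjamini-Hochberg over all tested, threshold 0.05), which was tested on simulated data. SE are moderated. Python 3.11.15 with pandas 2.3.3 and matplotlib 3.10.9 drew the plots and searched the promoter windows, whose motifs were chosen with the values known.

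All member probe sets are named. Genes of the pathway lists were represented by their tested probe set with the highest mean, and up to 4 per list with the smallest p are named. Genes named outside this rule were singled out after their values were seen. These were the Ctsc, Gzmm and Lcp2 profiles, Tbx21, Eomes, and single marker genes such as Cd3g, Cd3e, Cd8a, Cd8b1, Ms4a1 and Klrc1. The members and lists were chosen with earlier results of these data known. The alternatives were quantile, median and cyclic loess normalization, no filter or the 75th percentile, no variance trend, robust variances, array weights, a block for the replicate number, and each array left out.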

Additional observations from a re-analysis of the deposited data

How the results depend on the processing

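Limma called 0 member probe sets and 0 probe sets overall at an adjusted p below 0.05 in all 14 alternative settings, and the smallest adjusted p of a member in any of them was 0.407. Over all probe sets, 1243 (without AKRxFVB F1 array 1) to 2523 probe sets had an unadjusted p below 0.05 with 1 array left out, 1299 with the filter at the 75th percentile and 3880 without a filter, against 2337, and the cause of the shift with an array left out was not tested. With 1 array left out, Gzma ranged from -0.93 to 0.13, Gzmb from -0.55 to 0.68, Il2rb probe set 1417546_at from -0.036 to 0.23 and Il2rb probe set 1448759_at from -0.31 to 0.056, each changing sign with the cause not tested. Nkg7 ranged from -0.98 to -0.030, Ccl5 from -0.52 to -0.11, Klrd1 from -0.98 to -0.28 (untested), Txk from 0.22 to 0.39, Cd244a probe set 1449991_at from -0.18 to 0.0086 (untested), and Cd244a probe set 1426120_a_at from 0.13 to 0.37. Under the other settings run, the 12 differences kept their sign wherever they were computed, except for Gzmb with the replicate block (-0.0078).

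The replicate numbers are shared by 2 arrays of each cross, and nothing in the labels makes them pairs. Deviations from the cross means correlated at -0.26 between the arrays numbered 1 and at 0.17 between those numbered 2. The fit with the replicate block leaves DBAxFVB F1 array 3 without influence on the difference and called 0 members (2438 probe sets at an unadjusted p below 0.05). The number of arrays and the low signal, with 3 of 12 probe sets below the filter, limit what could be detected.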
